A study of Mus musculus with 15 samples.

Results

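The genes described here are Cnnm1, Slc18a2, Susd4, Car14, Mug2, Ank1, Sct and Cnih2, 8 of the 22073 genes with a symbol on the array. They were listed for large falls in array signal from C1 to C2 mouse cumulus cells, so that this fall is a description and is not tested. The list carried no cut-off value, and 10 probes represent the 8 genes in the authors' table, which holds 20855 probes with 15087 gene symbols. The label of the list calls them nearly silenced in ovulated cumulus, and how far the data bore this out differed between them. Mug2 and Ank1 were not well above background in any C2 array, whereas the main probes of 5 of the 8 genes stayed well above background in all 5 C2 arrays and Sct in 4 of them. Even so, the C2 signal of Cnnm1, Slc18a2, Susd4 and Car14 was only 0.912% to 1.04% of the C1 signal, against 7.28% for Sct and 14.1% for Cnih2. The C1 mean, in log2 relative to the array median, was lower for Sct (0.12) and Cnih2 (-0.50) than for those 4 genes (2.99 to 4.69). Sct and Cnih2 thus had less room to fall before reaching background, which limits this contrast. Detection also depends on the probe: the second Slc18a2 probe was well above background in only 1 C2 array, so that the size of its fall is uncertain.

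Cumulus cells came from B6CBAF1/J mice at 3 stages, with 5 pools of several females each and 1 array per pool. NC1 cells were taken from compact complexes in large follicles of 3-week-old females, with prophase I oocytes of no or poor developmental competence, and C1 cells likewise from 8-week-old females, with competent prophase I oocytes. C2 cells surrounded metaphase II oocytes and were flushed from the oviduct of 8-week-old females superovulated with PMSG and hCG. Oocytes were removed by pipetting at NC1 and C1 and with hyaluronidase at 300 µg/ml at C2, so that age cannot be told apart from stage between NC1 and C1, and hormones, site of collection and enzyme cannot be told apart from stage between C1 and C2. Replicate numbers name the pools, and the p-values measure the spread between these pools.

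Cumulus cells are granulosa cells that remain in contact with the oocyte through gap junctions, and they feed it with metabolites and hold it in meiotic arrest. After the LH surge they build a hyaluronan-rich matrix, lose their contacts with the oocyte and turn towards a luteal programme. The 8 genes belong to different functions: membrane transport and ion balance (Cnnm1, Slc18a2, Car14), control of complement and proteases (Susd4, Mug2), the membrane skeleton (Ank1), peptide hormone signalling (Sct) and receptor trafficking (Cnih2).

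Each value is the log2 signal of a probe minus the median of the same array, taken over probes that were valid at every stage, so that 0 is the signal of a middling probe and each unit is a doubling. A probe was called well above background as the scanner software called it. The arrays had between 18368 and 24496 gene probes well above background and none had a saturated spot. Since the hybridization strength differs between probes, values are compared between stages for a probe and not between probes. In pooled cells a lower signal from fewer cells of a type and from less RNA per cell cannot be told apart.

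Cnnm1, a cyclin M family membrane protein tied to magnesium balance, gave 3.72, 3.82, 3.76, 3.63 and 4.03 in NC1 replicates 1 to 5. Its C1 values were 2.85, 3.26, 2.88, 3.11 and 2.84. The C2 values were -3.86, -3.46, -3.69, -4.21 and -3.72. Every C2 array lay below every prophase I array, with 6.30 log2 units between the lowest C1 and the highest C2 array, and the stages NC1 and C1 did not overlap either. The mean went from 2.99 ± 0.19 (SD, n = 5) at C1 to -3.79 ± 0.27 (SD, n = 5) at C2, a fall of 110-fold on the signal scale, and the C2 signal was 0.912% of the C1 signal.

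Slc18a2 encodes the vesicular transporter that loads monoamines into vesicles. Its main probe gave 4.68, 4.45, 4.25, 3.82 and 4.46 at NC1, and 3.96, 4.05, 4.40, 3.54 and 3.47 at C1. At C2 it gave -3.36, -3.21, -2.64, -2.88 and -2.23, still well above background in all 5 arrays. The NC1 and C1 arrays overlapped, and all C2 arrays lay far below them, at 0.930% of the C1 signal on average. The second probe of the gene differed by -6.78 between C1 and C2 on the log2 scale, against -6.75 for the main probe, and was well above background in only 1 C2 array. Its C2 readings were thus mostly at background, and the size of its fall is uncertain. Within stages the prophase I values of both probes moved together (r = 0.891 over 10 arrays).

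Car14 encodes a membrane-bound carbonic anhydrase with its active site outside the cell, where it interconverts carbon dioxide and bicarbonate. Its probe gave 4.57, 4.18, 5.07, 5.16 and 4.90 at NC1 and 4.78, 5.14, 4.28, 4.79 and 4.46 at C1, in overlapping ranges. At C2 it gave -2.07, -2.13, -2.36, -1.51 and -1.38, all well above background. The mean fall was 95.7-fold and the C2 signal was 1.04% of the C1 signal. Replicates 4 and 5 held the highest C2 values of this gene.

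Susd4, a sushi domain protein that inhibits complement, had the widest spread of the 8 genes at C2. It gave 1.62, 2.25, 1.61, 1.40 and 1.17 at NC1 and 3.61, 3.37, 3.99, 3.19 and 2.28 at C1. At C2 it gave -4.54, -4.06, -3.41, -3.11 and -1.40, so that replicate 5 stood well above the other C2 arrays. All 5 were well above background. The C1 arrays lay above all NC1 arrays, although C1 replicate 5 was only just above NC1 replicate 2. The mean fall from C1 to C2 was 96.6-fold, whereas that from NC1 to C2 was 30.2-fold.

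Mug2 encodes murinoglobulin 2, a protease inhibitor of the alpha-2-macroglobulin family. Its probe gave 1.65, 1.21, 1.23, 1.32 and 1.19 at NC1 and 1.55, 2.91, 1.32, 1.42 and 0.79 at C1. C1 replicate 2 stood above the other C1 arrays, and the ranges of the 2 stages overlapped. At C2 the readings lay between -6.39 and -5.51 and in no array were they well above background, so that C1 was at least 83.9-fold higher than C2. The bound sets the mean of C1 against the mean, over the C2 arrays, of the lowest signal that was well above background on that array or of the probe's own reading, whichever was higher. The authors' table names this probe Cpamd8, and its accession belongs to Mug2 in RefSeq. The assignment remains uncertain, because the near-identical paralog Mug1 behaved alike on its own probe: it was well above background in all prophase I arrays and in no C2 array, with a C1 signal at least 42.1-fold above that of C2, and its within-stage values followed those of Mug2 (r = 0.973 over 10 arrays).

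Ank1 encodes ankyrin 1, the adaptor that fastens the spectrin skeleton to membrane proteins and is best known from red blood cells. It gave 1.15, 1.04, 2.03, 1.70 and 1.59 at NC1 and 1.31, 1.22, 1.69, 1.23 and 1.59 at C1, with all C1 arrays inside the NC1 range. At C2 the readings were -6.41, -7.18, -6.42, -7.13 and -6.73, in no array well above background. C1 was at least 73.5-fold higher than C2, and NC1 at least 78.6-fold higher.

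Sct, the peptide hormone secretin, gave 0.20, -0.13, 0.50, 0.26 and 0.01 at NC1 and 0.14, -0.30, 0.46, 0.22 and 0.09 at C1. At C2 it gave -4.16, -3.51, -4.30, -3.14 and -3.18, and replicate 3 was not well above background. The prophase I stages overlapped throughout, and the mean fell 13.7-fold to 7.28% of the C1 signal. Cnih2 encodes a cornichon protein that escorts AMPA receptors and other cargo out of the endoplasmic reticulum. Its main probe gave -0.63, -0.67, -0.29, -0.30 and -0.34 at NC1, -0.27, -0.68, -0.75, -0.39 and -0.39 at C1 and -3.50, -3.38, -3.06, -3.44 and -3.24 at C2. The C2 signal of Cnih2 was 14.1% of that at C1, well above background in all 5 arrays, and the second probe gave 12.5%.

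**Figure D1:**
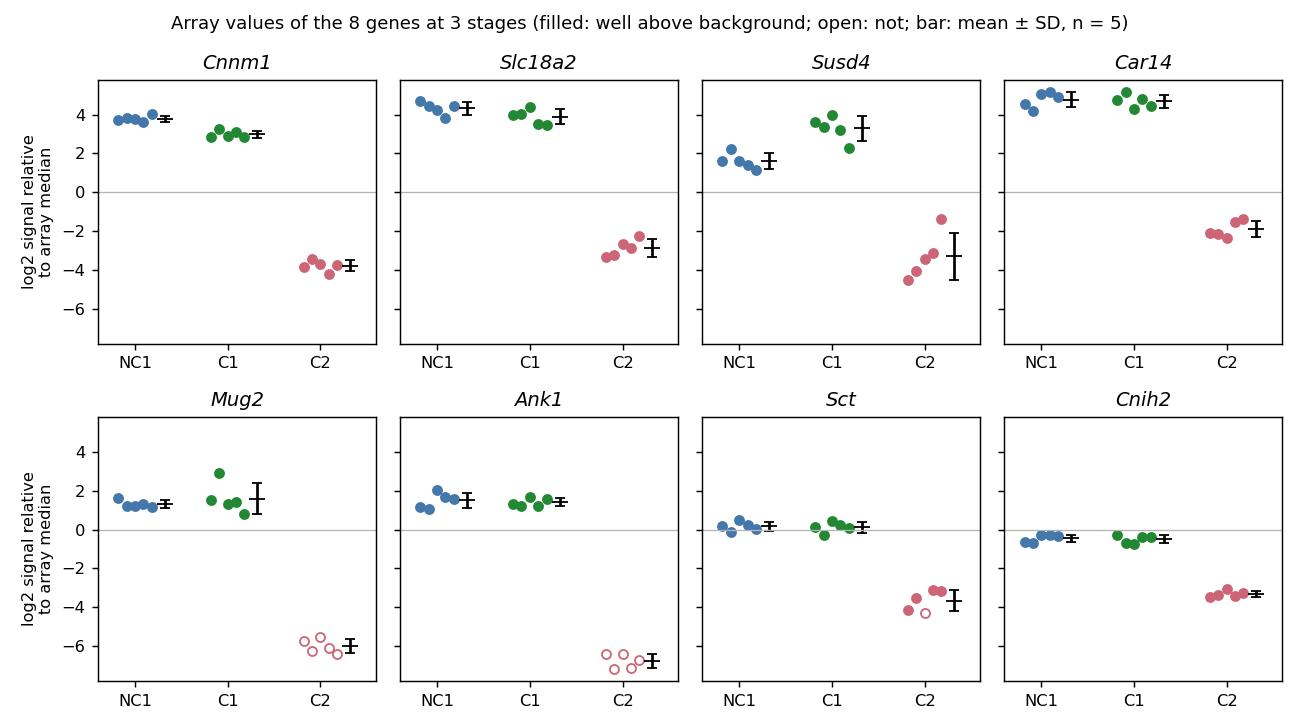
Log2 signal relative to the array median (vertical axis) of the main probe of each of the 8 genes on the 5 arrays of each stage, in replicate order from left to right, filled where well above background and open where not, with bars for the mean ± SD (n = 5). All C2 points lie below all NC1 and C1 points in each panel, and only Mug2, Ank1 and 1 array of Sct have open points.

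Ranked among the 20855 probes of the authors' table by the mean of C2 minus the mean of C1, the 8 genes fell into separate sets. The list was made from this measure, so the ranks describe the choice. Ank1 and Mug2 were listed at ranks 4 and 6, with readings at background at C2 and therefore no order between them. Slc18a2 (ranks 17 and 19), Cnnm1 (rank 18), Susd4 (rank 22) and Car14 (rank 24) followed, with differences from -6.78 to -6.58. The second Slc18a2 probe, at rank 17, was well above background in only 1 C2 array, so that its place is uncertain. Sct stood at rank 259 with -3.78 and Cnih2 at ranks 531 and 604 (8.01-fold and 7.10-fold), while the first percentile of all differences was -4.11. Just below Car14, the last listed gene of the run, were Mycl (-6.56), a MYC family transcription factor, and Pamr1 (-6.49), both in no C2 array well above background, and Fndc5 (-6.28), well above background in 4 C2 arrays.

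Of the 24 probes with the largest falls 7 belonged to the listed genes, and 8 were in no C2 array well above background. Genes that were not listed stood among them. Itih5 (-8.76), of the inter-alpha-trypsin inhibitor heavy chain family, the chemokine gene Ccl21a (-8.00), Mug1 (-7.19), Limch1 (-6.92) and the stromal proteoglycan gene Lum (-6.59) were, like Ank1 and Mug2, in no C2 array well above background, so that their readings carry no order. Wfdc10 (-8.39), Tdrd5 (-7.38), the transporter gene Slc47a2 (-7.16), Mybpc3 (-6.89), Ntng1 (-6.85) 1110032F04Rik (rank 11) and the dopamine receptor gene Drd4 (-6.79) were so in 1 to 3 C2 arrays. The hedgehog ligand gene Ihh (-6.61) was the only other gene among the 24 probes that was well above background in all 5 C2 arrays, as Cnnm1, Slc18a2, Susd4 and Car14 were. Of all 17814 probes well above background in every C1 array, 1.62% were so in no C2 array, and 92.0% were so in every C2 array.

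**Figure D2:**
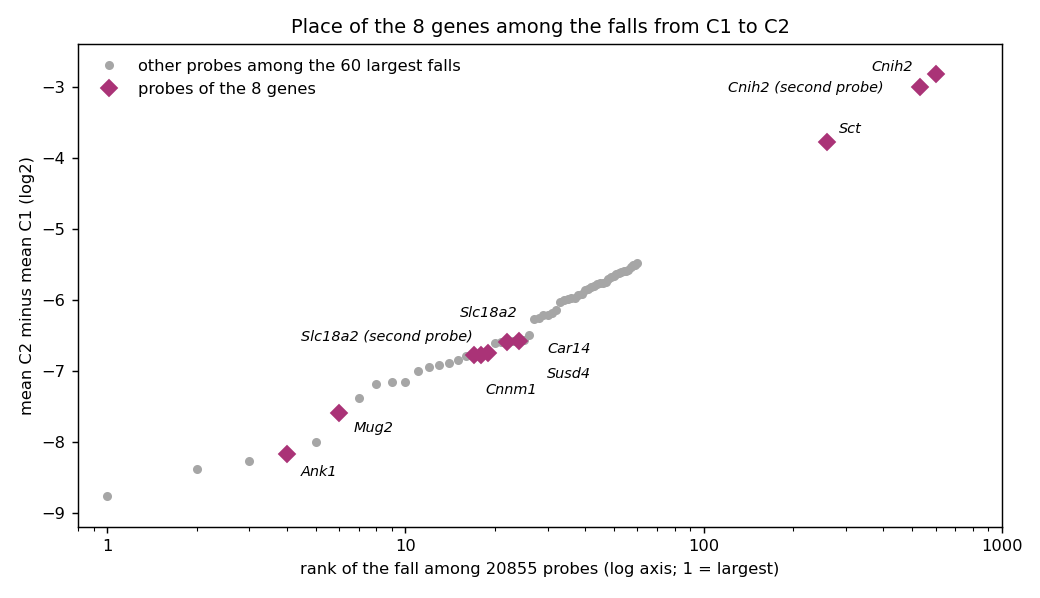
Mean C2 minus mean C1 (log2, vertical axis) against the rank of the fall among 20855 probes (log axis). Grey points are the other probes among the 60 largest falls and diamonds are the 10 probes of the 8 genes, of which 7 lie within the 24 largest falls and those of Sct and Cnih2 at ranks 259 to 604.

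The median difference over the 8 main probes was -6.67, or -6.49 with Mug2 and Ank1 at their bounds, whereas the median over all 17553 probes well above background at both stages was 0.03. In those probes limma called 47.6% as changed between C1 and C2 at an adjusted p under 0.01, of which 4506 (25.7% of those tested) were higher and 3846 (21.9%) lower at C2. This split depends on the scaling: with the median over all gene probes, 5423 were higher and 1795 lower, and with the spike-in probes, 1787 were higher and 2673 lower. All 8 genes had C1 and C2 arrays that did not overlap, as did 43.9% of the probes tested, and nothing is read from that count because the list was chosen on it. Within the 4 slides, each of which held arrays of all 3 stages, the C2 minus C1 difference of the main probes ranged from -2.67 (Cnih2) to -8.62 (Mug2) and was below 0 in every slide.

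Sequence upstream of the genes was looked at as a description. The shared fall from C1 to C2 is how the 8 genes were chosen and gives no ground for a shared motif. RefSeq windows (GRCm38.p6) of 250 bases before to 50 bases after the start were given for 7 of the 8 genes, Ank1 not among them, with 2 windows for Susd4. The windows of Slc18a2 (chr19:59260628-59260927, plus strand), Cnnm1 (chr19:43440163-43440462, plus strand), Car14 (chr3:95904636-95904935, minus strand) and Mug2 (chr6:122006548-122006847, plus strand) are shown because these genes span both the detected and the undetected members. They read 5′ to 3′ in the direction of the gene, and capitals mark the motifs searched.
Slc18a2: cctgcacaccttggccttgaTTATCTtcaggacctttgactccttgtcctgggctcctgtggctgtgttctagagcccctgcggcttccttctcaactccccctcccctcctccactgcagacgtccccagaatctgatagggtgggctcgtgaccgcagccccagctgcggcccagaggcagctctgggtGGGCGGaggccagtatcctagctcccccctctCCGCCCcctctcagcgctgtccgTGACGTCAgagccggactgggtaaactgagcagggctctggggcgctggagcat
Cnnm1: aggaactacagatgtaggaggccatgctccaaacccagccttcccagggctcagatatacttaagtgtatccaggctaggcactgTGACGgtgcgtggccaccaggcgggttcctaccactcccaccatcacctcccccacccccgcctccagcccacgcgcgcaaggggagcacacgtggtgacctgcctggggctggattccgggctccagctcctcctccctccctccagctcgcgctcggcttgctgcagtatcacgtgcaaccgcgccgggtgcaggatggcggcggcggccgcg
Car14: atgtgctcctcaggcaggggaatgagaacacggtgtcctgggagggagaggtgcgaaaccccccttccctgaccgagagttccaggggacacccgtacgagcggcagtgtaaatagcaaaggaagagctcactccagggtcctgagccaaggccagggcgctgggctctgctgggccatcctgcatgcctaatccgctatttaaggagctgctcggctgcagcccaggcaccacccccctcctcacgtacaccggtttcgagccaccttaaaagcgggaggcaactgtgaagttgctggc
Mug2: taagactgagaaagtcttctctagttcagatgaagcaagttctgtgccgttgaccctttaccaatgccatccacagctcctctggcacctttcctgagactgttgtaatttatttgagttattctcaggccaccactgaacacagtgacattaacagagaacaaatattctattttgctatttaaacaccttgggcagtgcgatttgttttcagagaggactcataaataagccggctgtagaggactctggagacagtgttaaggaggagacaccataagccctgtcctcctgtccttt
The motifs searched, on both strands, were the cAMP response element TGACGTCA and its core TGACG, which overlap, the NR5A type CAAGGTCA, the GATA type AGATAA, the SP1 and KLF type GGGCGG, the TATA box TATAAA, the AP-1 type TGACTCA, the RUNX type TGTGGT, the forkhead type TGTTTAC and the palindromic oestrogen response element. The full cAMP response element lay across the start of Slc18a2, at bases 247 to 254 of the window, and in none of the other 7 windows. Of all 32544 windows of this length, 1.8% held it. The core was found in the windows of Slc18a2, Cnnm1 and Susd4 and in 20.9% of all windows, and GGGCGG in 5 of the 8 windows (Slc18a2, Sct, Cnih2 and both of Susd4) and in 35.9% of all. Sct held TATAAA 28 bases before its start, as 13.6% of all windows held it somewhere, and Slc18a2 held AGATAA, present in 11.2%. The windows of Car14 and Mug2 held none of the letters searched. CAAGGTCA (1.53% of all windows), TGACTCA (5.19%), TGTGGT (16.7%), TGTTTAC (3.66%) and the oestrogen response element (0.0707%) were in none of the 8. The windows ranged from 43.7% G and C (Mug2) to 81.3% (the upstream window of Susd4), with a median of 53.0% over all windows. A match is a description of letters and not a site of binding.

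The comparison of adult with juvenile prophase I cells asks how the genes stood before ovulation, at the step of developmental competence. The choice of the genes did not use it, although it used the same C1 arrays. A high C1 reading enlarges the fall on which the genes were chosen, so that the choice could favour genes higher at C1. Of 18650 probes tested, limma called 462 at an adjusted p under 0.01, which is 2.48%, with 304 (1.63%) higher and 158 (0.847%) lower at C1. The split was 228 higher and 35 lower when arrays were scaled on spike-in probes. All 8 genes were well above background in all 10 prophase I arrays, 1 of the 8 (Cnnm1) was called, and the median difference was -0.07, against -0.03 over all probes tested.

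Cnnm1 fell from a mean of 3.79 ± 0.15 (SD, n = 5) at NC1 to 2.99 at C1, by 0.80 on the log2 scale (SE 0.136, limma adjusted p = 0.00175), and its lowest NC1 array lay above its highest C1 array. The call held in each of the 15 fits that left out 1 array (limma adjusted p between 0.000726 and 0.0069) and with slide as a block (-0.82, limma adjusted p = 0.00911), and the differences within the 4 slides were -0.66, -0.98, -0.65 and -0.95. It was lost when the arrays were scaled on the median over all gene probes (-0.91, limma adjusted p = 0.0182) or on spike-in probes (-0.65, limma adjusted p = 0.494), with the authors' table (-0.91, limma adjusted p = 0.0182), and without NC1 replicates 1 and 2, which stand apart in their marker genes as described further on (-0.82, limma adjusted p = 0.012).

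Susd4 differed by 1.68 in the other direction (SE 0.461, 95% interval 0.70 to 2.66), with C1 higher than NC1 in all 5 arrays, and its adjusted p of 0.0465 by limma did not reach the threshold. Over 26 alternatives its adjusted p by limma ran from 0.0019 to 0.131. It passed the threshold in 4 of these alternatives: with spike-in scaling, with normexp background correction, with only the NC1 and C1 arrays in the fit (limma adjusted p = 0.00603), and without C2 replicate 5, where the spread of the gene is largest (limma adjusted p = 0.00541). Slide as a block gave 1.49 (limma adjusted p = 0.101), and the differences within the slides were 1.87, 0.03, 1.57 and 2.70. Cnnm1 and Susd4 were the members with no overlap between NC1 and C1, 2 of 8, where 6.1% of all probes tested did not overlap.

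The other genes were not called. Slc18a2 was 0.45 lower at C1 than at NC1 on the log2 scale (95% interval -0.93 to 0.03) on the main probe and 0.60 lower (-1.16 to -0.04) on the second, with limma adjusted p of 0.342 and 0.253 and unadjusted limma p of 0.0661 and 0.0362. Mug2 differed by 0.28 (-0.34 to 0.90), Ank1 by -0.10 (-0.52 to 0.33), Car14 by -0.09 (-0.57 to 0.39), Sct by -0.05 (-0.52 to 0.42) and Cnih2 by -0.05 (-0.31 to 0.22). These intervals leave room for a change of at most 0.90 in either direction for the last 5 genes, well below their falls at C2. At C2 the difference from NC1 was -7.58 for Cnnm1, -7.20 for Slc18a2, -6.67 for Car14, -4.92 for Susd4, -3.83 for Sct and -2.87 for Cnih2, given as a description because the C2 arrays are those on which the genes were chosen. In that comparison 50.8% of all probes tested were called.

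**Figure D3:**
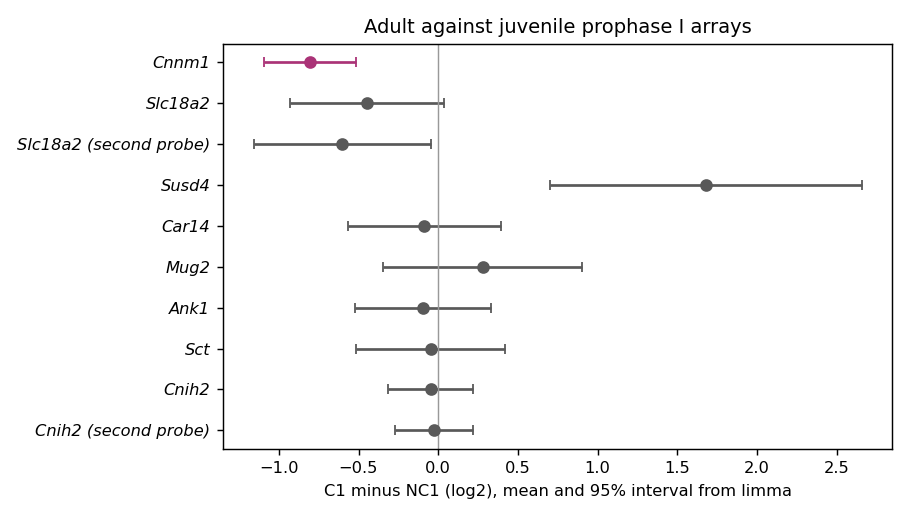
C1 minus NC1 (log2, horizontal axis) of the 10 probes of the 8 genes, with 95% intervals from limma. Cnnm1, coloured, is the gene that was called (-0.80), Susd4 lies farthest to the right at 1.68 and the intervals of the others are near or across 0.

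The cells at the 3 stages were checked with marker lists. Of 12 granulosa and cumulus genes, 12 were well above background in at least 4 arrays at NC1 and at C1 and 11 at C2, where Kitl, the kit ligand, was in no array. Foxl2, the granulosa identity factor, was level between C1 (4.03) and C2 (4.06, limma adjusted p = 0.908), while 9 of 11 granulosa genes tested were lower at C2, with a median difference of -3.10 over the 11, among them Amh (-4.72) and Inhbb (-4.72). The summed signal of the 10 theca and stroma genes, in units of the array median, was 16.8 to 68.2 at NC1, 14.8 to 22.1 at C1 and 0.917 to 1.26 at C2, with Lum, Pdgfra and Tcf21 in no C2 array. The summed signal of the oocyte genes was 13.0 to 51.6 at NC1, 13.2 to 41.6 at C1 and 0.783 to 17.4 at C2, with Figla, Nobox, Ooep and Zp2 in no C2 array, Ooep also in no other array. Of the stroma genes 6 of 6 tested fell from C1 to C2, and of the oocyte genes 1 of 4 tested (Npm2). Oocyte genes well above background in too few C2 arrays were not tested. Among them, Zp1 (mean 1.04 at C1 and -4.43 at C2), Zp3 (1.44 and -4.38) and Nlrp5 (-0.30 and -4.94) were so in 3 C2 arrays each. None of the oocyte genes had a higher mean at C2 than at C1. The summed C1 and C2 ranges of the oocyte genes overlapped. The part of both lists in the fall of the 8 genes was not tested. In the other direction, the summed signal of 8 oviduct epithelium genes was 6.32 to 8.03 at NC1, 7.25 to 11.9 at C1 and 25.0 to 30.4 at C2. Of 6 of them tested, the keratins Krt8 and Krt18 rose, Epcam and Tppp3 fell, and the oviduct glycoprotein gene Ovgp1 (2.28, limma adjusted p = 0.0352 against C1) and Cdh1 (0.05) were not called. Against NC1, Ovgp1 rose by 3.32 (limma adjusted p = 0.00362). Pax8, not tested, was in no array well above background. Krt8 and Krt18 had the highest C2 means of the oviduct list (3.28 and 3.85), so that they weighed most in its summed signal. The summed signals ran from 3.22 to 6.31 for leukocyte genes and from 0.747 to 1.74 for endothelial genes over all stages. Between C1 and C2, Cd14 (1.22, limma adjusted p = 0.000717) and Cdh5 (1.5, limma adjusted p = 0.000133) rose, 1 of 4 leukocyte and 1 of 3 endothelial genes tested, and Adgre1 was well above background in 1 NC1, 3 C1 and 5 C2 arrays. The endothelial genes Kdr (0.09) and Pecam1 (-0.28) were not called. Others went the other way: Emcn was well above background in 4 C1 arrays and no C2 array, and Vwf in 3 C1 arrays and 1 C2 array. The part of these cell types in the fall of the 8 genes was not tested.

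Some arrays stood apart within their stage. NC1 replicates 1 and 2 had the highest mean log2 values of the theca and stroma genes (1.73 and 0.94, against -0.23 to 0.33 in the other 8 prophase I arrays), and also the highest of the red blood cell genes (3.55 and 3.99). Their oocyte means were likewise the highest of the prophase I arrays (1.21 and 0.98), and their granulosa and cumulus means the lowest (3.67 and 3.77). C2 replicates 4 and 5 had the lowest oocyte means (-5.15 and -5.05, against -2.41 to -2.18 in the other C2 arrays). In the same 2 arrays Car14 and Susd4 had their highest C2 readings, Car14 -1.51 and -1.38 and Susd4 -3.11 and -1.40, and Sct also (-3.14 and -3.18). Whether this is linked to the oocyte signal was not tested. Without them the fall of Susd4 was -7.30, that of Car14 -6.88 and that of Sct -4.11.

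The relation of the 8 genes to stroma, oocyte and red blood cell genes within a stage was examined over the 10 prophase I arrays, with the mean of each stage removed from the gene and from the mean of the list, and an exact permutation test within stages (14400 arrangements, two-sided). Of 24 relations, 3 had an unadjusted permutation p under 0.05 by r. None had an adjusted p under 0.05, by r or by rho. Slc18a2 rose and dropped with the oocyte genes (r = 0.775, exact permutation p = 0.0124, adjusted p = 0.199; rho = 0.77, p = 0.0209, adjusted p = 0.118), and so did Susd4 (r = 0.713, exact permutation p = 0.0166, adjusted p = 0.199; rho = 0.733, p = 0.023, adjusted p = 0.118). Without NC1 replicates 1 and 2, the farthest from the median of the list, these were 0.772 and 0.783. The other relations with the oocyte genes were 0.24 for Mug2, -0.13 for Cnnm1, -0.13 for Sct, -0.55 for Car14, -0.57 for Cnih2 and -0.59 for Ank1. Without the same 2 arrays, those of Car14, Cnih2 and Ank1 were -0.07, -0.13 and 0.04. Cnih2 ran against the stroma genes (r = -0.658, exact permutation p = 0.0339, adjusted p = 0.271; rho = -0.745, p = 0.0158, adjusted p = 0.118), and without the same 2 arrays r was -0.34.

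The relations with theca and stroma genes were 0.53 for Slc18a2, 0.18 for Susd4, 0.13 for Mug2, -0.13 for Cnnm1, -0.25 for Sct, -0.63 for Car14 and -0.63 for Ank1. For Car14, rho was -0.733 (exact permutation p = 0.0247, adjusted p = 0.118). That of Ank1 rested on NC1 replicates 1 and 2, since r became 0.42 without them. None of the 8 genes thus had a within-stage relation with stroma genes that passed the adjustment, and Lum, the stroma gene among the largest falls, had a C1 signal at least 26.9-fold above that of C2. Ank1 shares its best known role with red blood cells, whose genes were far higher at NC1 (summed signal 73.7 to 439) than at C1 (10.9 to 43.8), with 4 of 6 called lower at C1. Ank1 differed by -0.10 between these stages and its within-stage r with the red blood cell genes was -0.75 (exact permutation p = 0.0507, adjusted p = 0.304; rho = -0.855, p = 0.0143, adjusted p = 0.118), or -0.20 without NC1 replicates 1 and 2. Without C1 replicate 5, this r was -0.92 (exact permutation p = 0.000694, adjusted p = 0.0167). The part of red blood cells in the Ank1 signal was not tested. The relations of Slc18a2 and Susd4 with the red blood cell genes also turned on NC1 replicates 1 and 2, with r = 0.01 and -0.08 over all 10 arrays and -0.69 and -0.96 without them. The slides held too few prophase I arrays, 2 or 3 each, for a value within a slide.

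**Figure D4:**
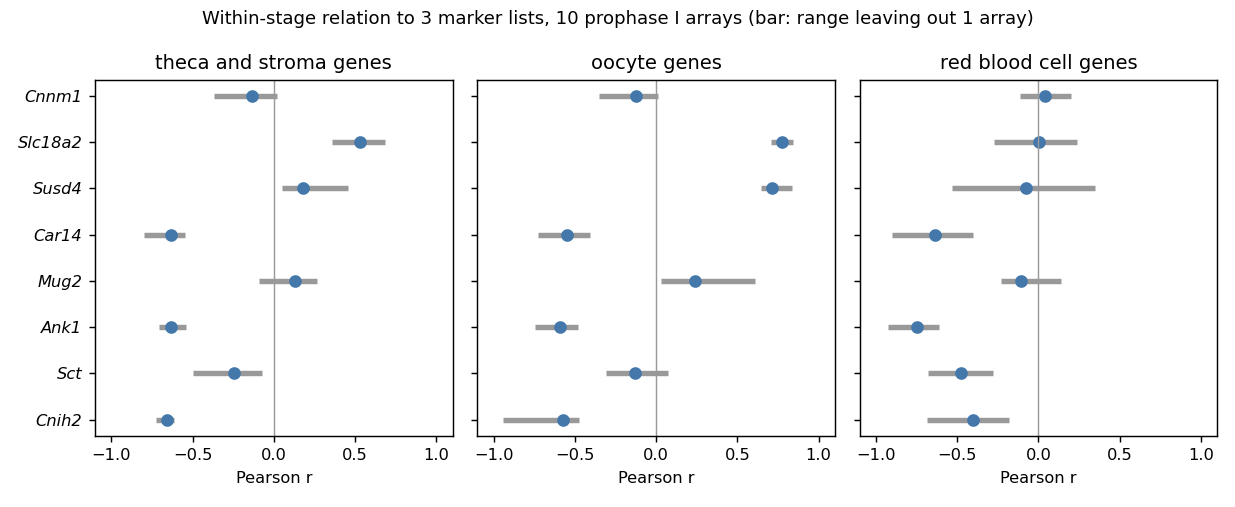
Pearson r (horizontal axis) between each of the 8 genes and the mean of the theca and stroma, oocyte and red blood cell genes over the 10 prophase I arrays, after the stage means were removed. Bars span the values with 1 array left out, and Slc18a2 and Susd4 lie farthest to the right for oocyte genes (0.775 and 0.713).

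The 8 genes did not move as a block within stages. Over the 10 prophase I arrays the within-stage r of the 28 pairs ran from -0.69 (Slc18a2 and Cnih2) to 0.67 (Ank1 and Sct), with Slc18a2 and Susd4 at 0.65. Over all 15 arrays, where the step to C2 dominates and the arrays share it, the genes most like each member had r between 0.972 and 0.997 among 19031 candidates. They were Mycl and Itih5 for Cnnm1, Tmem184a and Mybpc3 for Slc18a2, Gm5907 and Plxna2 for Susd4, Adgrg1 and Sema3g for Car14, Aifm3 and Mug1 for Mug2, Adgrg1 and Tsen15 for Ank1, Mcm3 and Fen1 for Sct and Amh and Scube1 for Cnih2. The match of Cnih2 with Amh, the granulosa hormone of growing follicles, was 0.996, and that of Sct with Mcm3, a subunit of the replicative helicase, 0.992.

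Over the within-stage values of the 10 prophase I arrays the closest genes were others, with r between 0.911 and 0.983, the best of as many candidates. They were LOC100046474 and Nectin3 for Cnnm1, Zfp959 and Trnt1 for Slc18a2, Mief1 and Gm9441 for Susd4, Prkcsh for Car14, Mug1 and Scgb3a1 for Mug2, Dap3 and Hecw2 for Ank1, Utp11 and Pus7l for Sct, and E130309D02Rik and Itpkc for Cnih2. Mug1 for Mug2 was the gene that stood in both sets.

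Relatives of the 8 genes were taken from lists of their families and pathways, and for these genes the C2 against C1 comparison was tested. In the magnesium list, 13 relatives of Cnnm1 were tested, of which 2 rose, 3 fell and 8 were not called, with a median of -0.20. Cnnm2 fell by 0.61 (SE 0.140, limma adjusted p = 0.00139), while Cnnm3 (0.02) and Cnnm4 (0.07) were not called. The channel gene Trpm6 rose by 2.29 (SE 0.229, limma adjusted p = 3.03e-07) and the phosphatase gene Ptp4a2 by 1.24 (limma adjusted p = 1.48e-06), while its relative Ptp4a3 (-1.01, limma adjusted p = 6.84e-05) and the transporter gene Slc41a3 (-1.24, limma adjusted p = 2.23e-07) fell. Beside the difference of -6.78 of Cnnm1, none of the other 3 Cnnm genes moved by more than 0.61.

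Of the monoamine genes other than Slc18a2, 7 of 19 were not well above background in any stage, among them the transporter genes Slc6a2 and Slc6a3 and the tryptophan hydroxylase gene Tph2. Of 5 tested, 3 rose and 1 fell. The monoamine oxidases Maoa (1.40, limma adjusted p = 7.2e-05) and Maob (1.13, limma adjusted p = 0.000131) and Gch1 (1.31, limma adjusted p = 1.47e-05), the first enzyme of tetrahydrobiopterin synthesis, rose, and the transporter Slc29a4 fell by 1.81 (limma adjusted p = 2.96e-07). Ddc, the decarboxylase that makes dopamine and serotonin, was well above background in all 10 prophase I arrays and in no C2 array, at least 8.17-fold higher at C1.

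Of 11 complement relatives of Susd4 that were tested, 9 fell, none rose and the median was -1.30, where 21.9% of all probes tested fell and their median was 0.03. Serping1, the C1 inhibitor, differed most (-4.16, limma adjusted p = 2.95e-08), and Clu, the complement regulator clusterin (-1.88, limma adjusted p = 8.1e-09), Cd59a, the inhibitor of the membrane attack complex (-1.60, limma adjusted p = 2.94e-08) and Susd1 (-1.75, limma adjusted p = 4.05e-07) fell less. The proteases C1s1 (-1.30) and C1ra (-0.66, limma adjusted p = 0.00902), the regulator Cr1l (-0.995) and the central component C3 (-1.56) also passed. Susd6 (-0.42) and Cd55 (-0.42) were not called.

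Of the carbonic anhydrases other than Car14 that were tested, 2 rose and none fell. Car4, also bound to the outer membrane, rose by 0.63 (limma adjusted p = 0.000793) and Car12, of the same membrane group as Car14, by 1.39 (limma adjusted p = 0.000338), while Car15 was not called (0.43). These were the 3 tested of 15, and Car2, the soluble enzyme of many tissues, was well above background in 5 C2 arrays but in 1 C1 array and no NC1 array. Car9, the enzyme known from hypoxia, was so in all 10 prophase I arrays and in 2 C2 arrays. In the alpha-2-macroglobulin family, 4 relatives of Mug2 were tested and 2 fell, the complement component gene C3 (-1.56, limma adjusted p = 0.00719) and the receptor gene Lrp1 (-1.05, limma adjusted p = 0.000172). The genes of A2m and Pzp, the alpha-2-macroglobulins, were well above background in no prophase I array and in 3 C2 arrays each. Mug1 was the relative lost from all C2 arrays.

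Of the ankyrin and spectrin genes, 7 relatives of Ank1 were tested, 2 fell and 3 rose. Both other ankyrins fell, Ank3 (-2.45, limma adjusted p = 1.38e-07) and Ank2 (-1.62, limma adjusted p = 8.41e-08), and remained well above background in all C2 arrays. The adducin genes Add1 (1.00, limma adjusted p = 1.95e-06) and Add3 (0.61, limma adjusted p = 0.000255) and the tropomodulin gene Tmod3 (1.12, limma adjusted p = 5.39e-05) rose, and the beta spectrin gene Sptbn1 was not called (0.20). Of the red cell partners of Ank1, Sptb and Epb42 were well above background in at most 1 array of any stage, and the anion exchanger gene Slc4a1 in 3 NC1 arrays and in no C1 or C2 array.

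Sct and Cnih2 had few measurable relatives. Among 14 genes of the secretin family 1 could be tested, the glucagon receptor gene Gcgr, which rose by 0.61 (limma adjusted p = 0.000272). The secretin receptor gene Sctr was well above background in no NC1 or C1 array and in 3 C2 arrays. For Cnih2, the cornichons Cnih1 (-0.72, limma adjusted p = 2.91e-05) and Cnih4 (-0.69, limma adjusted p = 0.00124) fell, and Shisa9, another partner of these receptors, went from all 10 prophase I arrays to 1 C2 array. The AMPA receptor subunit genes Gria1, Gria2, Gria3 and Gria4 were well above background in at most 1 array of any stage. Between NC1 and C1 none of the relatives tested in the 8 lists was called. Those tested ran from 1 of 14 in the secretin list to 12 of 13 in the magnesium list. Trpm6, well above background in 3 NC1 and 5 C1 arrays, was not tested, with means of -4.17 at NC1 and -1.64 at C1.

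**Figure D5:**
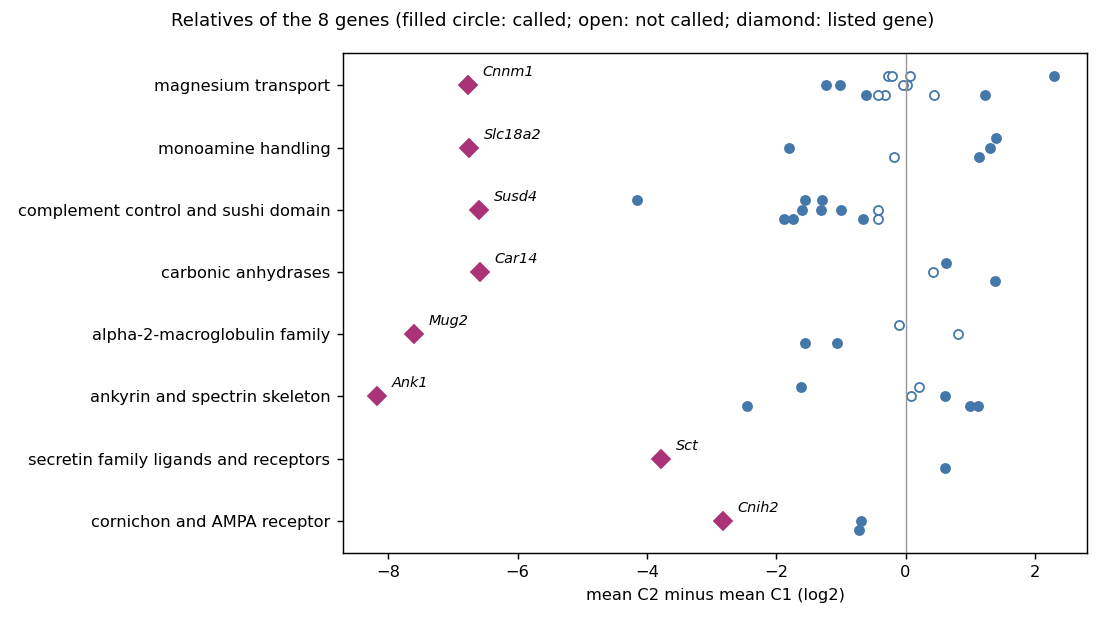
Mean C2 minus mean C1 (log2, horizontal axis) of the relatives of each gene that were well above background at both stages, filled where limma called them and open where not, with the listed gene as a diamond (Mug2 and Ank1 at readings not well above background at C2). Among genes not drawn are Mug1 and Ddc, in no C2 array, Car9, in 2 C2 arrays, and Shisa9, in 1. Of the genes drawn, the complement genes other than Susd4 lie to the left of 0 and the carbonic anhydrases other than Car14 to the right.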

How the data were processed

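Cumulus cell RNA of 15 pools was hybridized with 1 dye (Cy3) to Agilent oligonucleotide arrays. The authors deposited the scanner output, in which Feature Extraction (10.7.1.1 per the file headers, 10.5.1.1 per the submitters' processing notes) gives background-subtracted intensity values on a linear scale, and a log2 table of 20855 probes by the authors, which equals the log2 intensity plus a constant for each array. Its probes were ranked by their falls, and its values were an alternative. In the analysis, control spots and spots marked as non-uniform or population outliers were left out, spots of a probe were averaged, log2 was taken and the median over the 17324 probes well above background in at least 4 of 5 arrays of every stage was subtracted. Of 39429 gene probes, 26055 were named through RefSeq accessions, 2770 by the authors' table only and 10604 stayed unnamed. Mug2 was found through its accession and the other 7 genes by symbol. Where a gene had several probes, that with the highest mean over the arrays was its main probe.

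Stages were compared with limma (3.58.1) in R (4.3.3), with 1 model over 15 arrays and the Benjamini-Hochberg adjustment at 0.01, over probes well above background in at least 4 of 5 arrays of both stages compared. Tests were two-sided. The fit was tested on simulated data. The number of arrays limits the precision. The rule for named genes covered all probes of the 8 genes, the 15 largest falls, listed genes that were called or lost, and the 2 genes most like each member over all arrays and within stages. Other genes named were chosen after their values were seen. The members and the lists were chosen with earlier results of these data known. Alternatives covered scaling, background correction, filters, slide, replicate number and each array left out. The planned normexp correction used the median spot signal, since the files hold no mean. A few genes that the rule covers are not reported here.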

Additional observations from a re-analysis of the deposited data

Results flagged for a closer look

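In 30 groups of 5 arrays, 1 value stood apart from the others of its group by Dixon's criterion: Mug2 gave 1.65 in NC1 replicate 1, against 1.19 to 1.32 in the other 4 NC1 arrays. Chance alone marks about 5% of such groups.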

How the results depend on the processing

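The 8 genes were chosen for their fall from C1 to C2, so that its direction is not a test. This fall kept its direction in each of 26 alternatives. Its median of -6.67 moved to -5.52, and that against NC1 to -5.05, under normexp background correction, whose offset raises dim signals. The size of single falls thus depends on the background. That of Cnnm1 from C1 to C2 was -6.78 in the main setting, -5.76 with normexp and -6.47 with the authors' table, and that of Slc18a2 was -6.14 with normexp. Leaving out 1 array gave medians of -6.85 to -6.58 against C1 and -7.01 to -6.85 against NC1. Of probes called between C1 and C2 (8352), spike-in scaling left 4460, and leaving out 1 array gave 7513 to 8357. Between NC1 and C1, 462 calls became 287 with the median over all gene probes, 288 with the authors' table and 263 with spike-in scaling, and ran from 312 to 480 with 1 array left out. The median difference of all probes tested, -0.03 between NC1 and C1 and 0.03 between C1 and C2, moved to -0.14 and 0.34 with the median over all gene probes and to 0.12 and -0.12 with spike-ins. The cause was not tested.

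The count of the 8 genes called between NC1 and C1 was 0 with the median over all gene probes and with the authors' table, and 2 (Cnnm1 and Susd4) with normexp, with only the 2 stages compared and without C2 replicate 5, and it ran from 1 to 2 over arrays left out. With spike-in scaling the 1 gene called was Susd4. In settings added after the data were seen it was 0 without NC1 replicates 1 and 2, and 2 without C2 replicates 4 and 5. Small differences between NC1 and C1 changed sign. With spike-in scaling those of Car14, Ank1, Sct and Cnih2 became 0.0659, 0.0567, 0.105 and 0.106, and with normexp that of Ank1 became 0.00083. With 1 array left out, Car14 ran from -0.24 to 0.0158, with 0.0105 and 0.0158 without NC1 replicate 4 and C1 replicate 3. Likewise Ank1 ran from -0.21 to 0.0374, Sct from -0.13 to 0.0572, with 0.0358 without NC1 replicate 3, Cnih2 from -0.10 to 0.0167 and Mug2 from -0.0493 to 0.48. Of the within-stage relations 0 to 1 had an adjusted permutation p under 0.05 with 1 array left out.

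Arrays of the same number correlated between 0.06 and 0.35 for NC1 and C1, where replicates 2, 4 and 5 matched their own number best and 1 and 3 did not, and between -0.24 and 0.21 in the comparisons with C2, so that the numbers were not taken to pair the samples. With the number as a replicate block, 419 probes were called between NC1 and C1 and 8139 between C1 and C2, and Cnnm1 was still called (limma adjusted p = 0.0033) and Susd4 not (limma adjusted p = 0.0996). Probes under background at C2 limit the fall to a lower bound.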
